A study of Mus musculus with 4 samples.

Results

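Accessible chromatin was examined at the genes of 3 cytokine receptor subunits, Il2ra, Il2rb and Il7r, in mouse naive CD4+ T cells that had been driven towards regulatory T cells (iTreg) with or without IL-4. ATAC-seq peaks of 4 libraries were merged into regions wherever they shared at least 1 base, and every region that touched one of the 3 gene records or the 50 kb on either side was kept. This gave 79 regions out of 93679 in the genome, of which 35 lay at Il2ra, 22 at Il2rb and 22 at Il7r.

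The starting cells were CD62L-high CD44-low CD25- CD4+ T cells sorted from the spleens of male wild-type C57BL/6 mice, 7 weeks old by the labels, where the study's methods give an age range that includes it. For 48 h they were cultured on 5 µg/ml of bound anti-CD3 with 1 µg/ml of anti-CD28 in solution, and both groups received 5 ng/ml of human TGF-β1 and 10 ng/ml of mouse IL-2. The iTreg+PBS group (2 libraries) received no IL-4, and the iTreg+IL-4 group (2 libraries) received 15 ng/ml of mouse IL-4. The study describes its samples as pooled, so a library stands for a pool and not for a single animal. CD25 is the protein that Il2ra encodes, so the sort had removed cells carrying it, while the cultures of both groups contained its ligand. Each library came from a bulk population, in which a site open in fewer cells and a site less open in every cell cannot be told apart.

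IL-2 signals through a receptor of up to 3 chains. Il2ra encodes the α chain, which raises the affinity for IL-2 and is induced when a T cell is activated, and Il2rb encodes the β chain, which signals and is shared with the IL-15 receptor. The common γ chain, encoded by Il2rg, completes this receptor and also joins the α chain of the IL-7 receptor, encoded by Il7r, whose signal keeps naive and memory T cells alive. JAK1 and JAK3 act below these receptors and pass the signal on to STAT5. Il2ra is known for enhancers upstream of its promoter and within its first intron, several of which bind STAT5 in IL-2-stimulated cells, and regulatory T cells usually carry much CD25 and little IL-7 receptor. IL-4 signals through its own α chain and the same γ chain, mainly to STAT6.

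The results turn on a few regions, whose 300 central bases are printed below in the direction of transcription of the gene, on mm10. The promoters of Il2ra and Il7r come instead from the RefSeq promoter table (GRCm38.p6, chr2:11642542-11642841 on the plus strand and chr15:9529827-9530126 on the minus strand). They are shown because they carried peaks in every library. The region in intron 1 of Il2ra ranked highest among those of the gene body (chr2:11653466-11653765, plus strand). The Il7r stretches, all on the minus strand, belong to the only region called with IL-4 alone (chr15:9567406-9567705), to a region in intron 1 that ranked higher with IL-4 (chr15:9528159-9528458) and to an upstream region that ranked higher without it (chr15:9533403-9533702). Capitals mark matches on either strand to short letter forms that some families of factors are known to favour. These were TTCNNNGAA and, with a wider gap, TTCNNNNGAA for STAT proteins, TGANTCA for AP-1, TGTGGT for RUNX proteins, CGGAAG for ETS proteins, TGTTTAC for FOXO proteins, TGGAAA for NFAT and GGGNNNNNCC for NF-κB. Forms of different families may overlap, so 1 run of capitals can hold more than 1 match.
Il2ra promoter: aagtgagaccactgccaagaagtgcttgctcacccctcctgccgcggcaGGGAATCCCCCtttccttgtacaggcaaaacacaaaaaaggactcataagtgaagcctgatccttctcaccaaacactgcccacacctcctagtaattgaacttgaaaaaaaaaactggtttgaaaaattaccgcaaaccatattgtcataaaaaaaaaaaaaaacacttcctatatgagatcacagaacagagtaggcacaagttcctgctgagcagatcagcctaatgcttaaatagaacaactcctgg
Il2ra intron 1, 10.8 kb: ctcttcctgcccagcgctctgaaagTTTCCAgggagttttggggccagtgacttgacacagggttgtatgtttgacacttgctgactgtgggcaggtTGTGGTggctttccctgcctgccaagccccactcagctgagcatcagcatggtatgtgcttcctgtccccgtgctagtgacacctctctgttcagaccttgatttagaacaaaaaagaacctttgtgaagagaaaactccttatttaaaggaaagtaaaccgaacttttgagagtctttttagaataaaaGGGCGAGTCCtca
Il7r promoter: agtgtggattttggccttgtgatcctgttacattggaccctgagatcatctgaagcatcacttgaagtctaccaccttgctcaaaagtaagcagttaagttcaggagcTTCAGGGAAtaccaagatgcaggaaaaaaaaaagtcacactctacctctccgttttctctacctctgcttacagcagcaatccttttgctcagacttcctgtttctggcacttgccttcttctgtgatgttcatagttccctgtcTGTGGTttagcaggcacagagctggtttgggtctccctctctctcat
Il7r upstream, 37.7 kb: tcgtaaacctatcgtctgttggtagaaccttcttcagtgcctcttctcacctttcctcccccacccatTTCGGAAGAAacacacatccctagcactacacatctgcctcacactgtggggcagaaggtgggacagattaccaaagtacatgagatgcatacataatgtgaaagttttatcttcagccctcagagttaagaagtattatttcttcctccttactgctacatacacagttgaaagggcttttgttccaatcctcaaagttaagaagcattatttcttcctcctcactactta
Il7r upstream, 3.68 kb: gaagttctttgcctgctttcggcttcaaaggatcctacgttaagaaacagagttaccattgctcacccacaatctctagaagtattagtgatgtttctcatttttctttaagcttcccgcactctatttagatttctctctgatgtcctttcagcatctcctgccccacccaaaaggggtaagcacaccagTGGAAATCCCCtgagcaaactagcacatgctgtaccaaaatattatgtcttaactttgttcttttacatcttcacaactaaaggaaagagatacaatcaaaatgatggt
Il7r intron 1, 1.57 kb: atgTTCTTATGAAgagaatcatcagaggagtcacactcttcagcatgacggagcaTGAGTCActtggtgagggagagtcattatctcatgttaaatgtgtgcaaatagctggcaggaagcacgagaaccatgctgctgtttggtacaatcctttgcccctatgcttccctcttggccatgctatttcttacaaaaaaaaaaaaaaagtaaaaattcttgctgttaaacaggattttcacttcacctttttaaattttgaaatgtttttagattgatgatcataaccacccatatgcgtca

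Peaks were ranked only within their own list, because the number of reads behind a list is not known here and neither the −log10 q nor the height of a peak was scaled between libraries. The rank given here is the percentage of peaks in the same list with a higher −log10 q, so that a low value stands for a strong peak. The lists held 77064 and 56645 peaks in iTreg+PBS replicates 1 and 2, and 78670 and 67743 peaks in iTreg+IL-4 replicates 1 and 2. With 2 libraries against 2, no two-sided permutation test can give a p below 0.333. Where the values of the conditions do not overlap, its p is fixed at 0.333 and adds nothing to the lack of overlap. Among promoters of marker genes, all 7 of the T cell list carried a peak in every library. The B cell marker Cd79a, the myeloid markers Lyz2, Adgre1 and Spi1 and all 3 natural killer cell markers had none in any library. Fcgr3 and Cd8b1 had a peak in all 4 libraries, Ms4a1 and Itgam in 3, Cd8a in 2 and Pax5 in 1, and the part of other cells in the values at the 3 loci was not tested.

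The 3 loci were dense in accessible regions. Il2ra and its flanks held 23.3 regions per 100 kb, against a median of 6.61 over the windows of 21883 protein-coding genes, and 0.274% of these genes had more. Il7r held 17.8 regions per 100 kb and Il2rb 16.6, with more regions in the windows of 2.99% and 4.69% of the genes. By regions called in all 4 libraries the order of the latter pair was reversed: 1.02% of the genes had more than Il2ra, 1.84% more than Il2rb and 7.75% more than Il7r. These places in the order are a description of 3 windows and carry no test. Of the 79 regions, 50 (63.3%) were called in all 4 libraries, against 51.0% of all regions in the genome. A further 12 were called in 3 libraries, 7 in 2 and 10 in 1, against 13.7%, 13.7% and 21.6% of all regions. The library without a peak was iTreg+PBS replicate 2, the shortest list, for 8 of the 12 regions called in 3 libraries, as it was for 72.9% of such regions across the genome. The regions with a peak in 1 library were found in iTreg+IL-4 replicate 1 (5 regions), iTreg+PBS replicate 1 (4) and iTreg+PBS replicate 2 (1).

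At Il2ra (chr2:11642792-11693194, plus strand, 8 exons), the promoter was accessible in every library. The peak over the start site (chr2:11642257-11643150) had a rank of 6.14% and 8.82% in iTreg+PBS replicates 1 and 2, and of 6.35% and 7.95% in iTreg+IL-4 replicates 1 and 2. Both IL-4 values lay between the values without IL-4. Among 12722 protein-coding genes with a promoter peak in all 4 libraries, 35.2% to 41.5% had a stronger one, so the Il2ra promoter was well above the middle of the peak lists but not far above the middle of promoters. The promoter sequence above holds a run in which 2 matches to GGGNNNNNCC overlap, from position 50, and 50.8% of 32851 RefSeq promoters hold this motif.

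Upstream of Il2ra, 8 regions were called in all 4 libraries. The strongest by mean rank within 20 kb of the start site lay 5.43 kb upstream (chr2:11637106-11637612), with ranks of 9.96% and 17.3% without IL-4 and of 8.98% and 12.7% with it. The neighbour 7.02 kb upstream (chr2:11635007-11636536) ranked at 12.3% and 17.0% without IL-4 and at 13.2% and 14.8% with it. In both regions the values of the conditions overlapped. The region 16.7 kb upstream (chr2:11625786-11626356) ranked at 14.3% and 19.5% against 11.7% and 15.1%, and that 19.5 kb upstream (chr2:11623134-11623519) at 36.2% and 64.4% against 47.8% and 56.03%, again with overlap. The former lies in another gene, Gm17490, within 1 kb of a start of it. A region 12.5 kb upstream (chr2:11629670-11630893) did not overlap, at 29.7% and 26.6% without IL-4 and 25.2% and 23.7% with it. Both IL-4 values of this region were lower than both values without IL-4, which means a higher place in the list, and the difference in mean rank was -3.69 percentage points (28.1 ± 2.2 against 24.4 ± 1.09, SD, n = 2 each, exact two-sided permutation test, p = 0.333). Ranked among the shared regions alone it did overlap, at 47.6% and 31.4% against 41.3% and 33.5%. Further out, a region 25.8 kb upstream of the start (chr2:11616667-11617348) reached 3.69% and 3.51% in the first replicates of the 2 groups but 17.6% and 10.98% in the second replicates, so that its rank followed the replicate number more than the condition. The region 1.32 kb upstream (chr2:11641382-11641560), the nearest to the promoter, had a peak only in the first replicates of both groups.

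Intron 1 of Il2ra held 6 regions called in all 4 libraries. The strongest lay 10.8 kb downstream of the start (chr2:11653219-11654013), with ranks of 8.90% and 14.1% without IL-4 and 10.8% and 12.0% with it. Its flanking regions 8.94 kb (chr2:11651366-11652089) and 12.6 kb (chr2:11654945-11655830) downstream ranked between 14.6% and 21.9% in the 4 libraries. These 3 intronic regions, whose centres lie within 4 kb, thus stood near the upstream regions in rank, and in each of them the values with and without IL-4 overlapped. The regions 2.62, 20.6 and 29.5 kb downstream were weaker, with ranks between 23.1% and 63.9%. Towards the 3′ end, regions were weak: the one in intron 7 (chr2:11687275-11687618), 44.6 kb from the start, ranked at 94.7% and 99.3% without IL-4 and at 81.8% and 93.6% with it. Its conditions did not overlap (97.0 ± 3.26 against 87.7 ± 8.35, SD, n = 2 each, exact two-sided permutation test, p = 0.333), but it stood near the bottom of each list, and by height they overlapped (49.7% and 70.0% against 42.7% and 59.4%). Ranked among the shared regions alone, its difference in mean rank was -1.94 percentage points. In exon 8, the regions 48.6 kb (chr2:11691205-11691645) and 50.4 kb (chr2:11692936-11693532) from the start ranked between 43.5% and 87.6%, with overlap. The latter lies within 1 kb of a start of another gene, Gm39759.

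**Figure D1:**
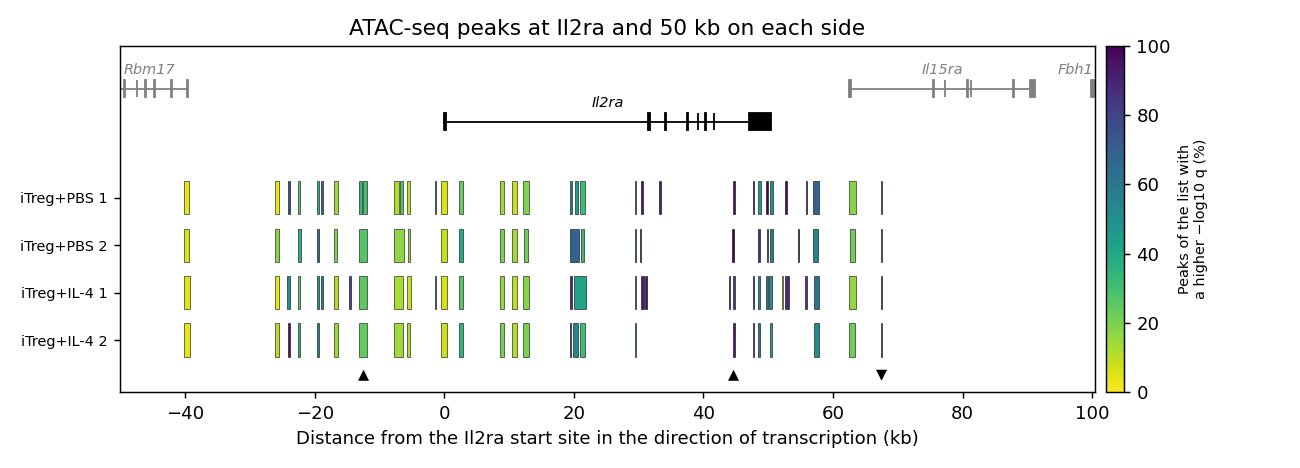
Peaks of the 4 libraries at Il2ra, by distance from its start site (kb, in the direction of transcription), coloured by rank within the list (percent of peaks with a higher −log10 q, yellow for strong), with exons of Il2ra in black and of neighbouring genes in grey. Triangles mark the regions whose ranks did not overlap between conditions, up for higher in the list with IL-4 (12.5 kb upstream and 44.6 kb downstream) and down for higher without it (67.5 kb downstream), while the promoter and 6 regions of intron 1 appear in every row.

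In the flanks of Il2ra, the strongest region by mean rank lay over the start of Rbm17 (chr2:11602577-11603548), a splicing factor gene, with ranks of 3.69% to 5.49%. The region 25.8 kb upstream ranked ahead of it in the first replicates of both groups. The region over the start of Il15ra (chr2:11705255-11706338), which encodes the α chain of the IL-15 receptor, ranked at 18.1% and 22.2% without IL-4 and 16.3% and 22.2% with it. A peak 52.2 kb from the start (chr2:11694928-11695089) had a call in a single library, iTreg+IL-4 replicate 1, with a rank of 5.49% by −log10 q but of 49.7% by height. A gap of at least 40 percentage points between these places, a limit set after the values were seen, was found for 2 of the 78670 peaks of that list and for 0 in each of the other lists, so the −log10 q of this peak was given no weight.

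At Il2rb (chr15:78479256-78511621, minus strand), the promoter was the strongest region of the 3 loci by mean rank, just ahead of the start of Rbm17. The peak over the curated start site (chr15:78494761-78495658) ranked at 2.998% and 7.95% without IL-4 and at 2.01% and 5.31% with it. Between 12.7% and 35.9% of the promoters of other genes ranked higher. The second replicates were weaker than the first in both groups, and the groups overlapped. Next to it in intron 1, a region 1.28 kb from the start (chr15:78493411-78494163) ranked at 10.3% and 23.0% without IL-4 and 9.61% and 17.6% with it, again with overlap. Predicted transcripts of Il2rb begin further upstream, and the region near their start site (chr15:78510158-78511252), 15.6 kb from the curated one, ranked at 21.8% and 36.1% against 20.3% and 27.2%. The region between both starts, 7.65 kb upstream of the curated one (chr15:78502157-78503269), ranked at 19.4% and 28.0% against 19.2% and 19.8%, and that 19.7 kb upstream (chr15:78514537-78514973) at 63.1% and 88.9% against 62.4% and 75.2%. None of these regions separated the conditions.

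The lower part of the Il2rb gene carried no region called in all 4 libraries except the one 15.0 kb from the start (chr15:78479784-78480418), past the curated transcript's end but within the gene record. It ranked at 70.3% and 57.6% without IL-4 and at 84.2% and 74.8% with it. This was the largest rank difference in favour of iTreg+PBS among the 50 shared regions of the 3 loci, 15.6 percentage points (63.9 ± 8.99 against 79.5 ± 6.62, SD, n = 2 each, exact two-sided permutation test, p = 0.333), in a weak region. By height the difference was 3.49 percentage points in the same direction, and ranked only among the regions called in all 4 libraries the conditions overlapped (91.7% and 67.0% without IL-4, 97.5% and 90.8% with it). Beyond the gene, a region 19.1 kb from the start (chr15:78475203-78476731) ranked at 6.59% and 13.8% without IL-4 and 6.94% and 11.4% with it. By mean rank it was second to the promoter. The next strongest flank regions lay over a start of C1qtnf6 (chr15:78531853-78532521; 10.1% to 12.3%) and within Tmprss6 (chr15:78449237-78450826; 10.7% to 17.4%).

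**Figure D2:**
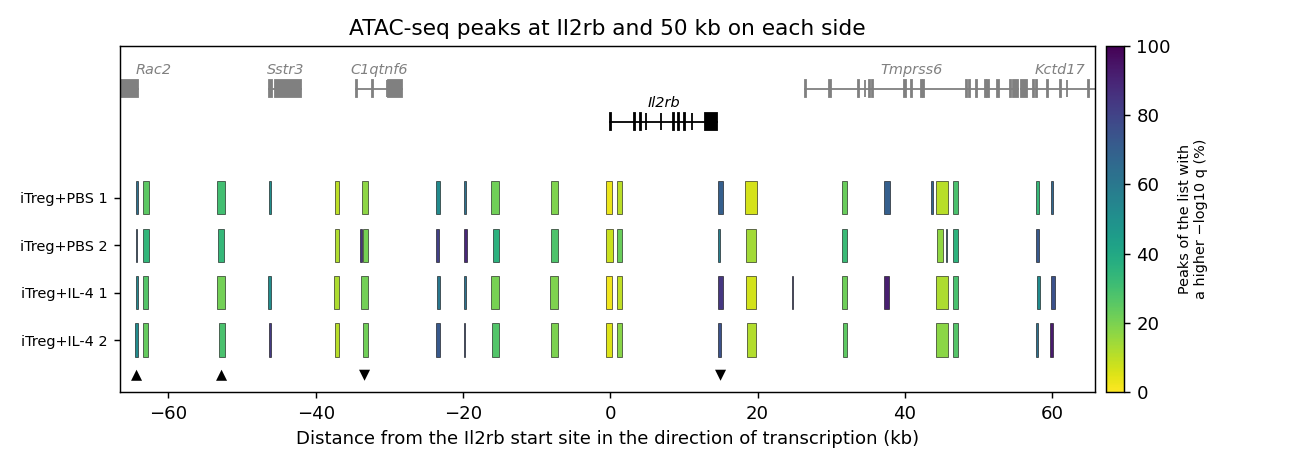
Peaks of the 4 libraries at Il2rb, by distance from its curated start site (kb, in the direction of transcription), coloured by rank within the list (percent of peaks with a higher −log10 q), with exons of Il2rb in black and of neighbouring genes in grey. The promoter is the brightest region in each row, and triangles mark 2 upstream regions that ranked higher with IL-4 (up) and 2 that ranked higher without it (down).

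At Il7r (chr15:9506159-9529941, minus strand, 8 exons), accessible regions were concentrated around the start of the gene and in the upstream flank. The promoter (chr15:9529519-9530079) ranked at 11.8% and 15.7% in iTreg+PBS replicates 1 and 2 and at 10.3% and 12.7% in iTreg+IL-4 replicates 1 and 2, with overlap. It was the weakest of the 3 promoters in each library, with 52.0% to 60.3% of other genes' promoters ahead. The promoter sequence above holds TTCAGGGAA at position 109 and TGTGGT at position 254, and 8.30% and 16.8% of 32851 RefSeq promoters of the same length hold matches to these 2 motifs.

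The region in intron 1 of Il7r (chr15:9527870-9528748) ranked at 16.9% and 22.5% without IL-4 and at 12.6% and 15.7% with it. With IL-4 it stood higher in both lists than in either list without, a difference of -5.55 percentage points (19.7 ± 3.99 against 14.2 ± 2.17, SD, n = 2 each, exact two-sided permutation test, p = 0.333). This difference ran from -8.37 to -2.73 percentage points when a library was left out. The same separation was found when peaks were ranked by height, at 11.9% and 17.1% against 8.05% and 11.3%, and when the ranking was made among the regions called in all 4 libraries, at 27.2% and 26.6% against 20.7% and 22.2%. The sequence printed above holds TTCTTATGAA at position 4 and, from position 56, TGAGTCA, a match to TGANTCA, which 16.7% of all regions hold. The region 3.68 kb upstream (chr15:9533371-9533735) differed in the other direction, with ranks of 53.6% and 49.3% without IL-4 and of 54.7% and 66.1% with it. Its difference of 8.95 percentage points (51.4 ± 3.02 against 60.4 ± 8.04, SD, n = 2 each, exact two-sided permutation test, p = 0.333) was 0.585 by height, with overlap. Among the shared regions alone the difference was 14.5, from 78.6% and 57.7% without IL-4 and 80.6% and 84.8% with it, and the conditions did not overlap. A region 5.52 kb upstream (chr15:9535118-9535676) ranked at 18.1% and 37.3% against 14.6% and 23.8%.

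The only region of the 3 loci that separated the conditions by peak calls lay 37.7 kb upstream of Il7r (chr15:9567389-9567722), outside any annotated gene. A peak was present there in each iTreg+IL-4 library and absent from the iTreg+PBS lists, which held for 1 of 79 regions (1 of 22 at Il7r), while 2.6% of all regions in the genome had this pattern. No region of the 3 loci had the opposite pattern, which 0.699% of all regions had. The share at the 3 loci was therefore not above that of the genome. The peak had a −log10 q of 33.2 and a height of 173 in iTreg+IL-4 replicate 1, and of 19.0 and 95 in replicate 2. Its ranks of 41.2% and 54.4% put it near the middle of both lists. The sequence printed above holds TTCGGAAGAA at position 69, which fits TTCNNNNGAA and contains CGGAAG. Of 93503 regions on the assembled chromosomes, 8.35% hold TTCNNNNGAA and 10.7% hold CGGAAG in their central 300 bases.

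Around this region, the Il7r flank was accessible in both conditions. A region 40.2 kb upstream (chr15:9569410-9570686), the strongest of the flank on that side, ranked at 8.81% and 15.1% without IL-4 and 7.77% and 12.3% with it. The region 32.8 kb upstream (chr15:9562010-9563239) ranked at 16.8% and 23.1% against 17.7% and 29.9%. On the other side of the gene, the strongest region lay within Capsl (chr15:9462892-9464019), 66.4 kb from the start of Il7r, and ranked at 6.97% and 12.2% against 7.09% and 10.2%. The groups overlapped in all of these. The rest of the Il7r gene was poor in peaks, with 2 weak regions, in intron 2 and at the last exon, each found in the 2 iTreg+IL-4 lists and in 1 iTreg+PBS list.

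**Figure D3:**
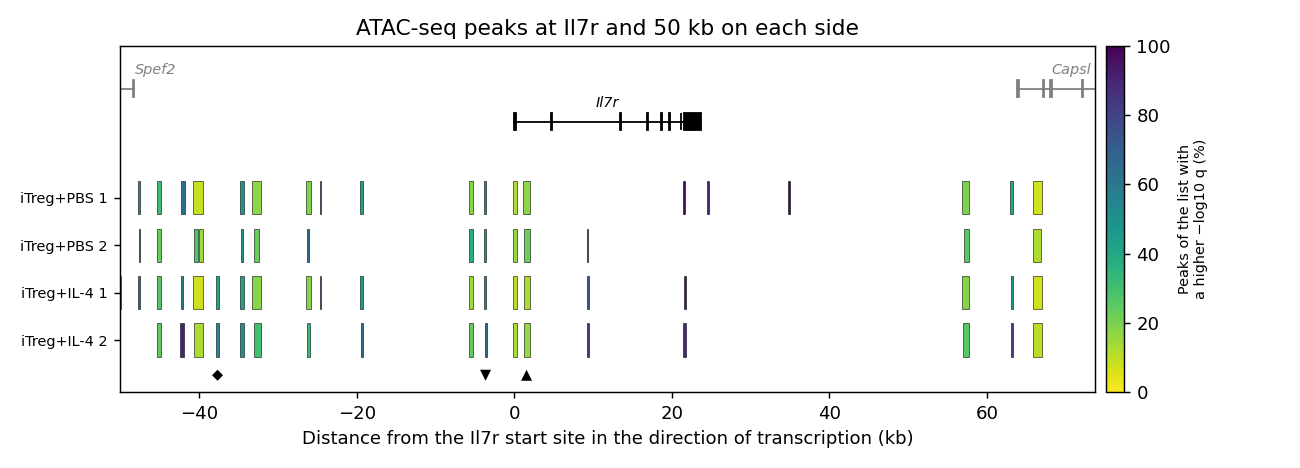
Peaks of the 4 libraries at Il7r, by distance from its curated start site (kb, in the direction of transcription), coloured by rank within the list (percent of peaks with a higher −log10 q), with exons of Il7r in black and of neighbouring genes in grey. The diamond marks the region 37.7 kb upstream with peaks in the iTreg+IL-4 libraries alone, the triangle pointing up the region of intron 1 and the triangle pointing down the region 3.68 kb upstream.

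The comparison of ranks asked whether the place of any accessible region in the lists differed with IL-4. Of the 50 regions called in all 4 libraries, 5 ranked higher in both iTreg+IL-4 libraries than in both iTreg+PBS libraries, 4 ranked higher in both iTreg+PBS libraries, and 41 overlapped. Over the 47767 such regions of the genome the percentages were 19.7 and 5.18. The 5 of 50 thus lay below and the 4 of 50 above the shares of the genome. The regions in favour of IL-4 were at Il2ra those 12.5 kb before and 44.6 kb after its start, that of Il7r in intron 1, and 2 in the upstream flank of Il2rb. Outside the naming rule, and picked after their values were seen, are the latter pair, 64.3 kb (in Rac2; 63.5% and 70.0% against 53.8% and 52.3%) and 52.9 kb upstream (at Sstr3; 30.4% and 33.5% against 21.2% and 28.8%), and 2 flank regions in favour of iTreg+PBS. The latter lay 67.5 kb downstream of the Il2ra start (68.4% and 67.2% against 82.3% and 72.2%) and 33.4 kb upstream of Il2rb (17.1% and 20.8% against 21.1% and 21.8%).

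The way of ranking changed the split. By height, 7 regions ranked higher with IL-4 and 1 without, against 20.4% and 4.42% of the genome's shared regions. Among the regions called in all 4 libraries, the numbers were 6 and 7, against 14.3% and 12.7%. In lists shortened to equal length, 4 and 9 of 47 shared regions separated, against 14% and 12.5%. Of the 9 separated regions, 2 held in all 3 of the first ways of ranking, the region of Il7r in intron 1 and that 64.3 kb upstream of Il2rb. Over the 50 shared regions the median difference in rank, iTreg+IL-4 minus iTreg+PBS, was -2.03 percentage points, against -2.05 over the genome. By locus it was -1.33 at Il2ra, -3.04 at Il2rb and -2.19 at Il7r. Ranked among the shared regions alone, these medians were 0.856, -1.70 and -0.599, against 0.0283 over the genome. The median rank of the 50 regions was 20.8% and 30.2% without IL-4 and 20.2% and 24.5% with it, against 31.3%, 42.5%, 30.7% and 35.5% for the shared regions of the genome in the same order.

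**Figure D4:**
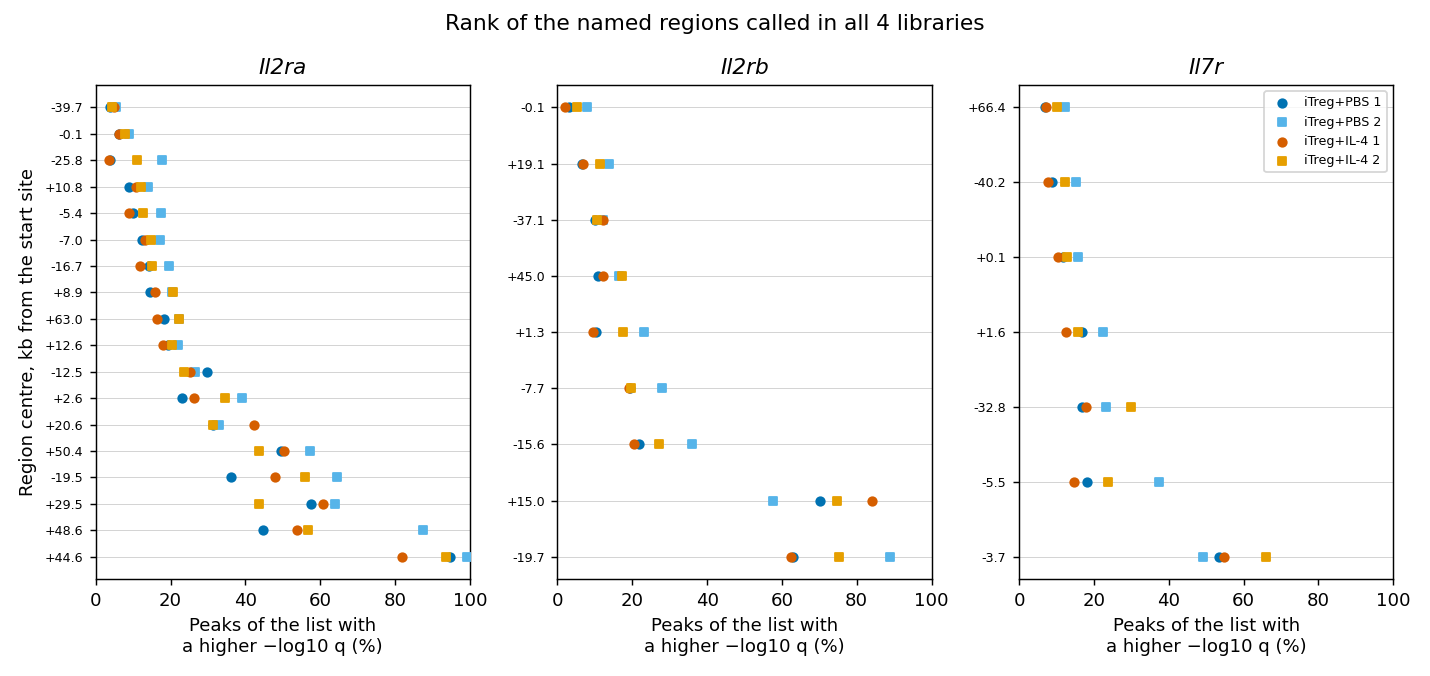
Rank within the list (x axis, percent of peaks with a higher −log10 q) of the named regions called in all 4 libraries, 1 point per library, with the distance of each region's centre from the start site in kb on the y axis. The points of the 2 conditions interleave in most rows, and in many of them the first replicates of both groups (circles) lie to the left of the second ones (squares).

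**Figure D5:**
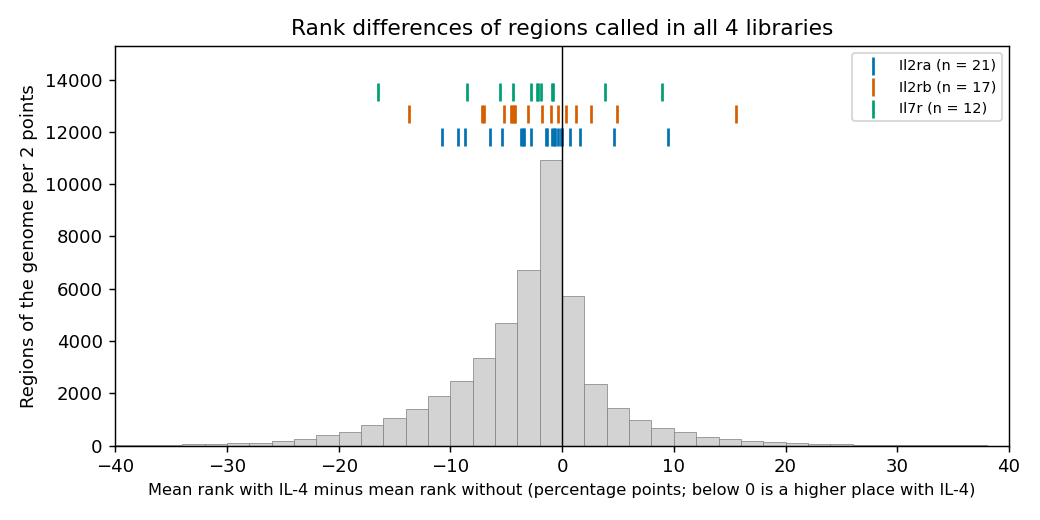
Number of regions of the genome called in all 4 libraries (grey bars, y axis) by the difference in mean rank, iTreg+IL-4 minus iTreg+PBS, in percentage points (x axis), with ticks above for the regions at each locus. The ticks of the 3 loci lie on both sides of 0 around the peak of the distribution, with medians of -1.33, -3.04 and -2.19.

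Over the whole loci, the bases covered by peaks overlapped between conditions. Peaks covered 16859 and 14302 bases of the Il2ra locus without IL-4 and 18522 and 14874 with it (15581 ± 1808 against 16698 ± 2580, SD, n = 2 each, exact two-sided permutation test, p = 0.667). At Il2rb they covered 14894 and 11650 bases against 15097 and 12562 (13272 ± 2294 against 13830 ± 1793, p = 0.667 in the same exact test). At Il7r they covered 10523 and 6753 bases against 10459 and 9437 (8638 ± 2666 against 9948 ± 723, p = 1 in the same exact test). Of the 9 stretches that make up the loci (transcript, upstream and downstream of each gene), 2 did not overlap. The curated Il7r transcript had 1552 and 1277 bases inside peaks in the iTreg+PBS libraries against 1760 and 1709 in those with IL-4, and that of Il2rb had 974 and 932 against 915 and 916 (p = 0.333 in both, the smallest the exact test allows with n = 2 each). Among the 15914 records of coding genes with a peak in any library, 21.1% had more bases inside peaks in both libraries with IL-4, whereas 4.12% had more in both without it. These are whole gene records, and no such share was taken for curated transcripts or flanks. In every locus the second replicate of a group had fewer bases in peaks than the first, and its list was shorter.

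Sequence features not used in choosing the regions were described in the central 300 bases of the 50 shared regions, beside 47710 shared regions on the assembled chromosomes. TTCNNNGAA was found in 18% of the regions at the 3 loci and 11.8% of all shared regions, TTCNNNNGAA in 16% and 7.70%, TGANTCA in 26% and 14.4%, and TGTGGT in 38% and 26.7%. CGGAAG was found in 4% and 13.7%, TGTTTAC in 2% and 3.57%, TGGAAA in 24% and 22.5%, and GGGNNNNNCC in 40% and 45.8%. The median GC content was 46.5% at the 3 loci and 50.7% over all shared regions. A match to these letters is a description and not a binding site.

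The promoters of 26 genes of the same pathways gave a background for the 3 receptor genes. A peak within 1 kb of a start site was called in all 4 libraries for 24 of them. The exceptions were Il9r, the IL-9 receptor chain, called in 3 libraries, and Il2, called in iTreg+IL-4 replicate 2 alone at a rank of 80.2%. Among the 6 partner receptor chains, Crlf2, which pairs with the IL-7 receptor α chain in the receptor for TSLP, was the strongest in each library (6.55% and 8.39% without IL-4, 6.66% and 8.61% with it). The common γ chain gene Il2rg ranked at 10.8% and 15.2% against 9.09% and 11.3%, and Il4ra at 12.3% and 14.1% against 9.63% and 13.7%. The signalling genes Jak1, Jak3 and Stat5a ranked between 2.88% and 8.11%, and Stat5b between 17.7% and 24.4%. No receptor, kinase or STAT promoter separated the conditions. Of the 12722 protein-coding genes with a promoter peak in all 4 libraries, 20% ranked higher with IL-4 in both libraries and 5.76% without it. Of the 24, 1 ranked higher in both iTreg+IL-4 libraries, Gfi1, a repressor known to act on Il7r (11.4% and 16.6% against 8.67% and 11.3%). In the opposite direction, 3 ranked higher in both iTreg+PBS libraries, namely Socs1, a feedback inhibitor of cytokine signalling (3.33% and 2.40% against 4.75% and 3.96%), the kinase gene Pim1 (2.37% and 1.91% against 5.50% and 2.49%) and the cytokine gene Il15 (22.9% and 24.5% against 27.8% and 24.6%).

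By the pattern of promoter rank over the 4 libraries, the protein-coding genes closest to Il2ra among 12722 were Smpd1, at a Euclidean distance of 0.443 percentage points, and Gm49527 and Zfp7, which share a promoter region, at 0.510. Closest to Il2rb were Hk2 (0.764), Them4 (1.12) and Stat5a (1.14). Closest to Il7r were 4921536K21Rik and Dusp18, on 1 shared region, at 0.376 and Sco2 at 0.520. Over 4 libraries this likeness describes rank alone.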

How the data were processed

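ATAC-seq was performed by the authors on 4 bulk samples, 2 iTreg+PBS and 2 iTreg+IL-4. Per the labels and the study's methods, read pairs were mapped to mm10 with Bowtie2 2.2.5, and peaks were called in each library with MACS2 2.1.2. The removal of duplicates and the shift of reads for transposase insertion were not given in the sources used here, and could affect heights and peak edges. The deposited lists have no header. From the values, the deposited column 4 was read as −log10 of the authors' q-value for a peak. The deposited column 5 was read as peak height, a pileup signal. In these lists the heights are whole numbers, and no scaling of the lists between libraries by the authors was found. The number of reads is unknown, so no interval could be given for a call, and a region without a peak is not shown to be closed.

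Tools were Python 3.11.15 with pandas 2.3.3 for merging and ranking peaks, scipy 1.17.1 for permutation tests, and pysam 0.24.0 for sequences. RefSeq (GRCm38.p6) gave the gene records and GENCODE further start sites. A region took its best peak in each library. Named were all regions within 1 kb of a member's start site, those in the gene or up to 20 kb upstream called in all 4 libraries or in 1 condition only, flank regions in 1 condition only, and the 3 best-ranked shared flank regions of each locus. Merging and counting were tested on simulated data. The genes, lists and rules were chosen with earlier results of these data known. Alternatives changed the flanks, the list length, the overlap, the rank and the libraries used. The study calls the 2 samples of a condition independent and pooled, but separate days or animals are not given, so p-values measure only the spread between these libraries.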

Additional observations from a re-analysis of the deposited data

How the results depend on the processing

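The count of regions called only with IL-4 was 1 in lists of equal length, 0 in the upper 50% of each list, 0 with 20 kb flanks, 3 with 100 kb flanks and 2 where peaks had to cover at least 50% of a region. Changing the flanks leaves the share over all regions at 2.6%, beside 0 of 51 regions with 20 kb and 3 of 115 with 100 kb. The other shares over all regions were 1.92% in lists of equal length, 2.14% in the upper 50% and 3.55% with that cover. Leaving out a library gave a count of 1 to 9. The count called only without IL-4 was 0 in each of these settings (1.03%, 0.301% and 0.834% of all regions in the same order) and 0 to 4 when a library was left out. Regions ranking higher with IL-4 numbered 3 in the upper 50% and 3 with 20 kb flanks, and 9 to 37 without 1 library. With 20 kb flanks the share over the genome's shared regions stays at 19.7%. Those ranking higher without IL-4 numbered 1 in the upper 50%, 9 in lists of equal length, 1 by height and 7 among shared regions, and 5 to 24 without 1 library. Leaving out iTreg+PBS replicate 1 gave the 9 of 75 regions and the 37 of 51 shared regions, against 13.6% and 70.8% over the genome, and leaving out iTreg+PBS replicate 2 gave the 24 of 59, against 36.0%, and the 4 of 79 regions, against 8.21%. In these settings 1 library stands alone for its group, so separation takes fewer values. In the upper 50% the 3 and the 1 were of 36 shared regions, against 19.7% and 4.17%.

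The labels share replicate numbers but do not say what a number stands for. With the replicate number as a block, 23 of the 50 shared regions ranked higher with IL-4 within both numbers and 7 ranked higher without it, against 43.4% and 12.3% of all shared regions. Same-numbered libraries deviated together (r = 0.452 over 47767 regions, which are not independent). The differences in bases had p = 0.5, 0.5 and 1 in the exact sign-flip test at Il2ra, Il2rb and Il7r, where 0.5 is the smallest it allows, against 0.667, 0.667 and 1 without the block. They were positive within both numbers at Il2ra (1663 and 572 bases) and Il2rb (203 and 912). With other lists or flanks the differences moved by less than the spread between replicates. Their signs changed, however, to -618 bases at Il2rb in lists of equal length and -14 bases there with 20 kb flanks. With 2 libraries per group, leaving 1 out cannot move a difference by more than that spread, so those settings could not test it. Without iTreg+PBS replicate 2 the differences were -161, -1065 and -575 bases at Il2ra, Il2rb and Il7r. Without iTreg+IL-4 replicate 1 they were -707 and -710 at Il2ra and Il2rb. The median rank difference of the 34 named shared regions, -1.62 percentage points, ran from -4.46 to 1.52 when a library was left out.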
